A study of Mus musculus with 35 samples.

Results

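Double positive (DP) thymocytes of young wild-type mice display both CD4 and CD8. They were compared gene by gene with double negative (DN) thymus cells, which display neither. The DN libraries carried markers of T cell precursors and also of other cell types, given below. The comparison rests on 10 of the 35 libraries of the study, 5 of young DP and 5 of young DN cells, and on all 13772 of 41096 listed genes that passed a filter on low counts. Young mice were wild type and 10 weeks old. Both populations were separated by flow sorting of thymus cells, and bulk RNA was sequenced from each. The other groups used here were DP and DN cells of wild-type mice of 60 weeks (aged) and of mice of 10 weeks with the genotype Mettl3flox/wt; Cd4Cre (WT), which carry a floxed and an unfloxed allele of Mettl3 and a Cre recombinase driven by Cd4. A model over all 35 libraries, used as an alternative, also holds DP cells of mice of 10 weeks with the genotype Mettl3flox/flox; Cd4Cre (KO, n = 5). The strain is not named in the labels. Neither is whether the 5 samples of a group came from separate mice, so a p-value here speaks for the variation among these samples alone, which may be technical.

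T cell precursors enter the thymus as DN cells, where signals through the Notch receptors commit them to the T lineage and the beta chain of the T cell receptor (TCR) is assembled by the RAG recombinase. A beta chain that pairs with the pre-TCR alpha chain triggers a burst of division, after which CD4 and CD8 appear on the surface and the cells rest as small DP thymocytes that assemble the TCR alpha chain. DP cells are then selected on self peptides presented by MHC molecules, and most of them die.

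Counts per library totalled 13284265 to 15903839 over these 10 libraries, and 12391908 to 18820157 over the whole series. Between 17512 and 18354 genes had at least 1 count in DP libraries and between 19054 and 19677 in DN libraries. On the 500 most variable genes, the first principal component carried 93.2% of the variance and parted DP from DN libraries. Pearson correlations of log2 CPM (read counts scaled to a common library size, per 1e6 counts) ran from 0.98 to 0.99 within DP, from 0.98 to 0.99 within DN, and from 0.85 to 0.89 between a DP and a DN library. As a check on the sort, the 3 coreceptor genes Cd4, Cd8a and Cd8b1 together reached 5710 to 6370 CPM in DP libraries. In DN libraries 1 to 4 they summed to 54.2 to 93.9 CPM, and in young DN 5 to 387 CPM. These genes encode the proteins that were sorted on, so their difference is no finding. Young DN 3 stood apart in another way: its summed granulocyte and mast cell markers reached 1190 CPM, against 562 CPM in the next DN library. The part of other cells in these libraries was not tested. Results that move by more than 1.5-fold without either library are given with and without it.

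Of the 13772 genes tested, 9697 (70.4%) differed between DP and DN at a Benjamini-Hochberg adjusted p under 0.05 in edgeR's quasi-likelihood test, which is what "called" means throughout. Among them 4671 (33.9%) were higher and 5026 (36.5%) were lower in DP. A fold change of 2 or more was reached by 3923 called genes (28.5%), of which 1480 (10.7%) were higher and 2443 (17.7%) were lower. The median log2 fold change of DP over DN was -0.01 over all tested genes. The excess of losses grew with the size of the change: among the 9447 genes that averaged 10 CPM or more in a group, 874 (9.25%) were called at least 2-fold higher in DP and 1285 (13.6%) at least 2-fold lower, and 91 were at least 8-fold higher and 266 at least 8-fold lower. For 7911 genes (57.4%) the 5 DP and the 5 DN values did not overlap. Among such genes with at least 10 CPM in a group, the largest falls in DP were in Lcn2, Mmp8, Esm1, Csf3r, Ltf and Chil3. Next came Klrk1, S100a8, Ngp, S100a9, Scart2 and Cd300lf. Csf3r, Ltf and S100a8 are in the granulocyte and mast cell list. All 10 tested members of that list were called at least 2-fold lower, with a median log2 fold change of -8.04. How far other cells in the DN libraries account for the excess of losses was not tested. Since most genes passed the test, the lists below are read against 33.9% called higher and 36.5% called lower. The lists and their members were chosen with earlier results of these data known. An excess over these shares is therefore a description and not a test. In these bulk libraries, fewer cells of a type and less RNA per cell cannot be told apart.

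**Figure D1:**
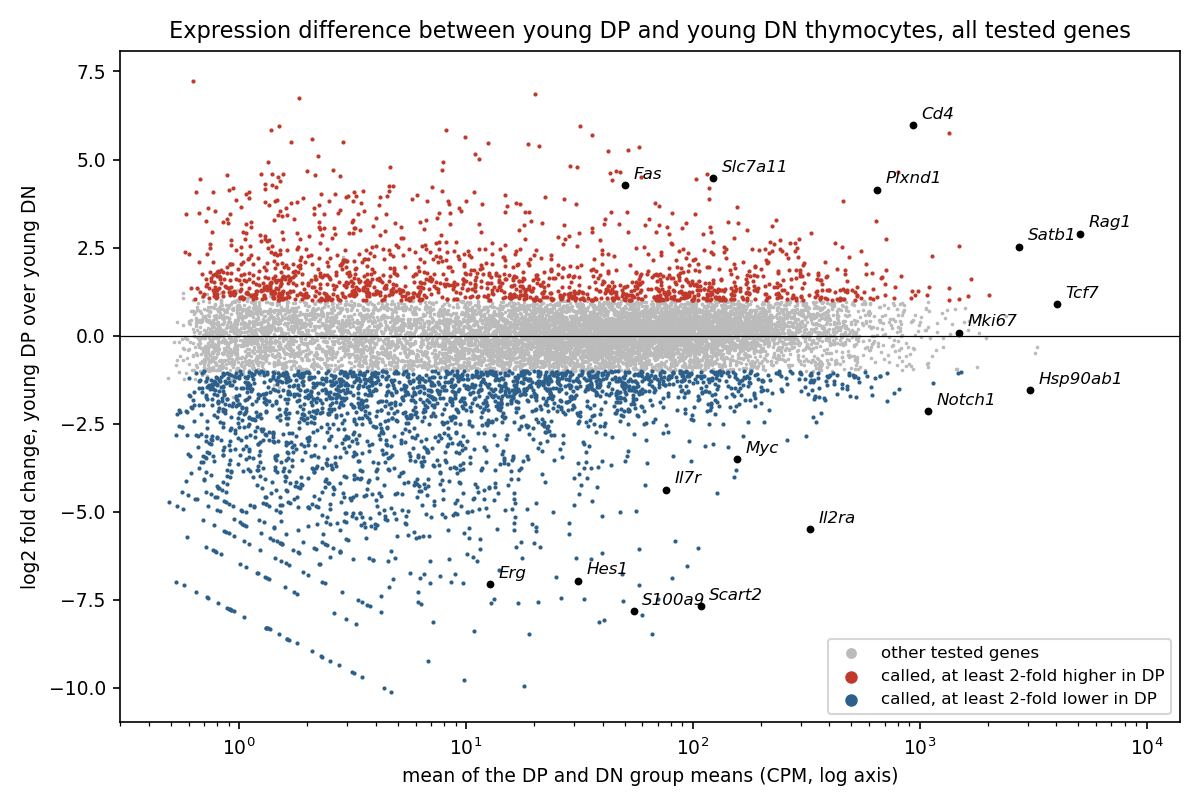
Mean of the group means in CPM (log axis) against the log2 fold change of young DP over young DN for each tested gene, n = 5 libraries a group. Red and blue points are the 1480 called genes at least 2-fold higher and the 2443 at least 2-fold lower in DP, and black points are genes described in the text.

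Leaving aside the coreceptors, the largest rises in DP among genes with at least 10 CPM were in Fn3k (fructosamine 3 kinase, which repairs glycated proteins), Slc6a19 (a neutral amino acid transporter), Xrra1, Adcy1 (an adenylyl cyclase), Tdrp, Tle2 (a Groucho family corepressor), P3h4, Adam12 (a membrane metalloprotease) and Map4k5 (a kinase). Slc6a19 had 93.6, 81.8, 138, 109.6 and 142 CPM in DP libraries 1 to 5, against 1.82, 1.48, 1.00, 1.09 and 8.17 CPM in DN libraries 1 to 5. Adam12 had 85.98, 63.7, 89.7, 93.2 and 109 CPM in DP libraries, against 2.15, 1.73, 1.63, 2.46 and 9.33 CPM in DN libraries. The groups did not overlap for either gene, and young DN 5 held the highest DN value of both. The log2 fold change was 5.37 (SE 0.40, edgeR adjusted p = 1.25e-08) for Slc6a19, or 6.37 without young DN 5. It was 4.67 (SE 0.35, adjusted p = 1.71e-08) for Adam12, or 5.47 without young DN 5. Without that library the fold changes of Fn3k, Xrra1, Tdrp, Tle2 and P3h4 also grew by more than 1.5 times on the linear scale, their log2 values being 7.12, 6.43, 5.84, 5.73 and 5.29 without it and 5.65, 5.26, 4.81, 4.80 and 4.70 with it. Map4k5 changed by 4.64 (SE 0.32), or by 5.59 without both young DN 3 and young DN 5, and Adcy1 by 5.15 (SE 0.32).

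By mean CPM, Rag1, Tcf7, Satb1, Actb and Ptprc led the DP libraries. Hsp90ab1, Eef2, Tcf7, Rplp0 and Pabpc1 led the DN libraries, and apart from the transcription factor Tcf7 these serve protein folding and translation. Hsp90ab1, a cytosolic chaperone, averaged 1556 ± 329.8 CPM in DP and 4569 ± 528 CPM in DN libraries (SD, n = 5 each). Eef2, the ribosomal translocation factor, averaged 2665 ± 357 CPM in DP and 3781 ± 124 CPM in DN, and Rplp0, a ribosomal stalk protein, 1249 ± 179 CPM in DP and 2311 ± 115 CPM in DN (SD, n = 5 each). Both were lower in DP in the test, with log2 fold changes of -0.50 (adjusted p = 6.34e-05) and -0.89 (adjusted p = 3.17e-07).

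The TCR loci came next. These segments lie outside the rule by which genes were named and were chosen after their values were seen, so the counts are a description. All 43 alpha J segments with enough counts for the test, of 51 in the table, were called higher in DP, with log2 fold changes of 2.9 to 5.11 and a median of 3.83. Their summed counts were 124 to 209 CPM in DP libraries, against 7.17 to 29.3 CPM in DN libraries. The segments passed the low-count filter through their DP counts, since their DN counts were too low for it. That every tested segment was called higher was therefore largely fixed in advance. A J segment is a short exon that recombination joins to a V segment, in front of the constant gene. The germline sequences of the segments nearest to and nearly farthest from Trac are shown because the level followed the position. They are from GENCODE M21 on GRCm38, with capitals marking the bases TTTGGNNNNGG or TTCGGNNNNGG, which encode the Phe-Gly-X-Gly turn found in most J regions. Read on the coding strand, either form stands in 43 of 60 annotated alpha J segments (71.7%) and in 11 of 14 beta J segments (78.6%).
Traj2, chr14:54217836-54217901, plus strand: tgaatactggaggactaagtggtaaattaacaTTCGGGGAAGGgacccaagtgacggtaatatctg
Traj58, chr14:54157280-54157342, plus strand: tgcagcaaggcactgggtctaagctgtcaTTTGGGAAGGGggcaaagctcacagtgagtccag

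Traj2, 2.7 kb before Trac, had 9.24, 10.4, 14.2, 9.94 and 13.4 CPM in DP libraries 1 to 5, against 0.0651, 0.863, 0.689, 0.217 and 1.67 CPM in DN libraries 1 to 5. Traj58, 67.9 kb away, had 3.63, 3.96, 1.83, 4.31 and 2.16 CPM in DP and 0.716, 0.555, 0.439, 0.0724 and 0.257 CPM in DN libraries. Every DP value exceeded every DN value of the same segment. The log2 fold change of Traj2 was 3.99 (SE 0.41), or 4.58 without young DN 5, and that of Traj58 was 2.92 (SE 0.42). The 10 tested segments nearest to Trac, 2.7 to 17.3 kb away, averaged 8.19 ± 2.07 CPM per segment in DP and 0.571 ± 0.394 in DN libraries (SD, n = 5 each). The 10 farthest, 43 to 69.1 kb away, averaged 2.09 ± 0.699 CPM in DP and 0.167 ± 0.0811 in DN libraries. The tested segments are 55 to 66 bases long, so length differs little between them. Across the 43 segments, which share the same libraries, Spearman's rho between CPM and distance was -0.87 in DP and -0.77 in DN. The DN value rests on few reads, from 7 (Traj43) to 68 (Traj7) per segment over the 5 DN libraries. Whether it holds without young DN 5, the library high in coreceptors, was not tested. Trac itself, the alpha constant gene, had 426, 388, 422, 365 and 403 CPM in DP libraries, against 38.7, 34.4, 42.04, 42 and 74.5 CPM in DN libraries. The groups did not overlap and young DN 5 was the highest DN library (log2 3.11, SE 0.17, adjusted p = 3.79e-10). Of 30 alpha V segments in the table, 6 were tested, of which 4 were called higher and 2 lower. The alpha V sums overlapped between the groups, at 12.1 to 19.6 CPM in DP and 10.5 to 15.9 CPM in DN libraries.

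**Figure D2:**
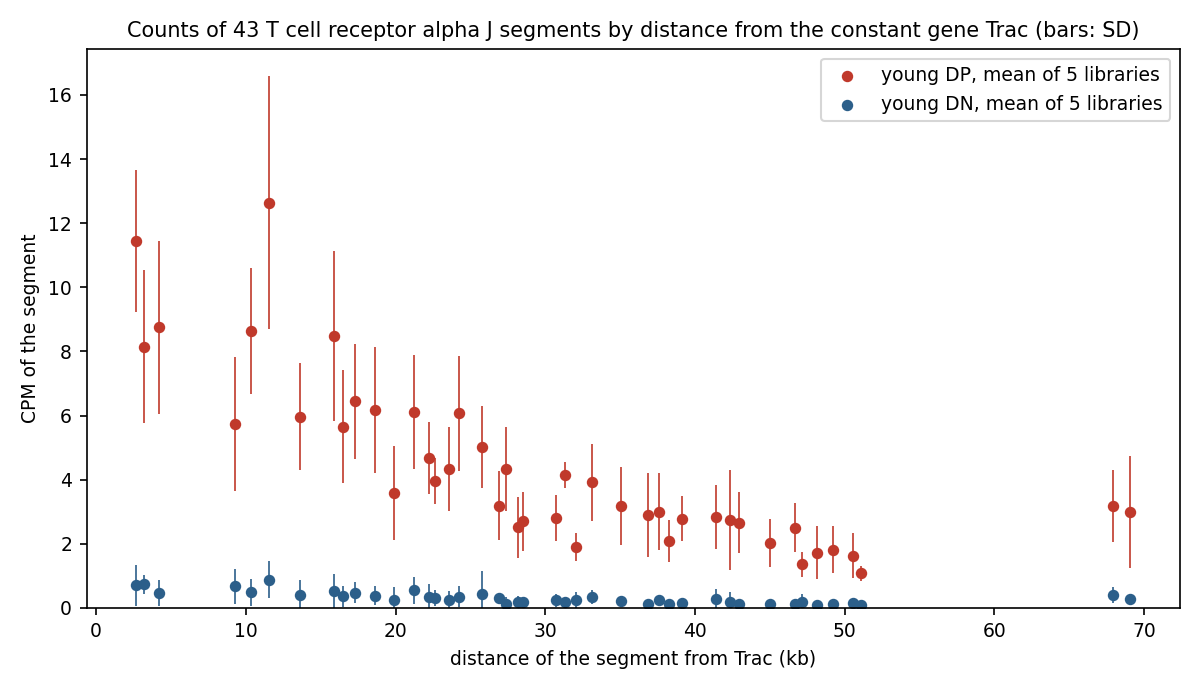
CPM of each of 43 tested alpha J segments against its distance from Trac in kb, as the mean of 5 young DP (red) and 5 young DN (blue) libraries with SD bars. DP levels decline with distance, from 8.19 CPM over the nearest 10 segments to 2.09 CPM over the farthest 10, and each DP mean lies above the DN mean of the same segment.

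At the beta locus, 21 of 21 tested V segments were called higher in DP (median log2 1.71, summed 549 to 672 CPM in DP and 200 to 224 CPM in DN libraries). The constant genes Trbc1 and Trbc2 were higher as well, with log2 fold changes of 1.32 (SE 0.08) and 1.38 (SE 0.10). The first D and the first J segment went the other way. Trbd1 had 1.57, 0.700, 1.13, 0.861 and 0.608 CPM in DP libraries, against 5.08, 3.39, 5.58, 4.85 and 4.37 CPM in DN libraries, and Trbj1-1 had 1.64, 2.25, 0.634, 2.25 and 0.540 CPM in DP and 18.1, 14.3, 19.4, 16.8 and 21.5 CPM in DN libraries. Neither gene's groups overlapped, and the log2 fold changes were -2.24 (SE 0.28, adjusted p = 3.79e-06) and -3.62 (SE 0.29, adjusted p = 3.37e-08). The next segment, Trbj1-2, lies directly after it and is as long. It had 15.5, 15.8, 15.4, 18.7 and 16.3 CPM in DP and 15.5, 10.7, 16.7, 13.8 and 17.7 CPM in DN libraries, with overlapping groups (adjusted p = 0.364). The other 5 segments of that cluster were called higher in DP, by 0.35 to 0.84 on the log2 scale. The 3 sequences are shown in their order on the chromosome, with capitals as above.
Trbd1, chr6:41533201-41533212, plus strand: gggacagggggc
Trbj1-1, chr6:41533864-41533911, plus strand: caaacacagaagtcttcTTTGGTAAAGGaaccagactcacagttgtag
Trbj1-2, chr6:41534001-41534048, plus strand: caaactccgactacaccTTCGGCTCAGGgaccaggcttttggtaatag

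Gamma segments were lower in DP, as were 3 of 5 tested delta segments, with 0 higher. All 6 tested gamma V and J segments fell, with a median log2 fold change of -6.77. They summed to 0.233 to 1.64 CPM in DP and 127 to 168 CPM in DN libraries, and entered the test through their DN counts alone. Trgc4, a gamma constant gene, averaged 1.36 ± 0.453 CPM in DP and 161 ± 16.2 CPM in DN libraries. Trdc, the delta constant gene, averaged 80.5 ± 15.98 CPM in DP and 176 ± 6.54 CPM in DN (SD, n = 5 each). Whether counting used strand is not given in the sources used here, so reads of overlapping or antisense transcripts at these loci are not separated.

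Genes of V(D)J recombination and DNA end joining were more often higher than lower: 10 of 15 tested members of 16 were called higher and 4 lower, with a median log2 fold change of 0.38, against -0.01 over all genes. The recombinase itself led. Rag1 had 8737, 7674, 9197, 9285 and 10132 CPM in DP libraries, against 1365, 1279, 836, 1054 and 1518 CPM in DN libraries, and Rag2 had 378, 379, 362, 336 and 363 CPM in DP and 86.96, 70.8, 58.3, 64.7 and 77.4 CPM in DN. Neither overlapped (Rag1 log2 2.90, SE 0.14, adjusted p = 1.36e-10; Rag2 log2 2.34, SE 0.09, adjusted p = 1.75e-11). Per kilobase of gene length, Rag1 stood at 1363 CPM and Rag2 at 106 CPM in DP cells. Dclre1c, the Artemis nuclease that opens hairpin ends, was higher by 1.64 (SE 0.09) and Dntt, the terminal transferase that adds untemplated bases, by 0.53 (SE 0.08) on the log2 scale, although the call of Dntt was lost in a model over all 35 libraries (adjusted p = 0.108). Lower were the Ku subunit gene Xrcc5 (-1.30), the damage kinase Atm (-1.04) and Trp53bp1 (-0.69).

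Notch and pre-TCR genes were mostly lower in DP: 13 of 19 tested members of 22 were called lower, 10 of them at least 2-fold, and 4 were called higher, with a median log2 fold change of -1.39. The receptor gene Notch1 had 338, 356, 420.4, 499 and 397 CPM in DP libraries, against 1919, 1771, 1688, 1767 and 1748 CPM in DN libraries. Notch3 averaged 113 ± 11.7 CPM in DP and 564 ± 61.05 CPM in DN (SD, n = 5 each). Both groups stood apart without overlap (log2 -2.15, SE 0.09, and -2.32, SE 0.09). Among Notch target genes, Hes1, a repressor, fell furthest, with 0.685, 0.933, 0.423, 0.265 and 0.203 CPM in DP libraries, against 66.1, 71.1, 61.5, 58.4 and 53.1 CPM in DN libraries (log2 -6.96, SE 0.20, adjusted p = 1.28e-12). Il2ra, which encodes the CD25 chain that marks the middle DN stages, had 12.9, 8.86, 20.1, 10.3 and 18.9 CPM in DP and 687, 595, 643, 589 and 713 CPM in DN libraries, again without overlap (log2 -5.50, SE 0.19, adjusted p = 4.98e-12). Dtx1, a ubiquitin ligase gene induced by Notch, changed by -2.29 and Nrarp, a feedback inhibitor, by -0.85 (SE 0.23), a call that was lost in the model over all 35 libraries (adjusted p = 0.219). Lfng, which encodes a glycosyltransferase that tunes Notch to its ligands, averaged 4.47 ± 0.845 CPM in DP and 48.3 ± 6.75 CPM in DN. Ptcra, the pre-TCR alpha chain, averaged 26.9 ± 4.71 CPM in DP and 70.5 ± 10.6 CPM in DN (log2 -1.39, adjusted p = 1.19e-07). Of the 4 genes called higher, the largest rises were in the coactivator Maml1 (0.83), the gamma-secretase subunit Ncstn (0.60) and Rfng, another fringe enzyme (0.49). Other coactivator and fringe genes of the list were called lower.

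The 250 bases before the annotated starts of Lfng and Ptcra are shown because each holds the core of the RBPJ motif, the DNA-binding partner of Notch, in more than 1 copy. The sequences are RefSeq's on GRCm38.p6, written on the gene's strand. Capitals mark TGGGAA or, for a copy on the other strand, TTCCCA. The first bases of these matches lie 135 and 108 bases before the start of Lfng and 84 and 32 bases before that of Ptcra.
Lfng, chr5:140607091-140607340, plus strand: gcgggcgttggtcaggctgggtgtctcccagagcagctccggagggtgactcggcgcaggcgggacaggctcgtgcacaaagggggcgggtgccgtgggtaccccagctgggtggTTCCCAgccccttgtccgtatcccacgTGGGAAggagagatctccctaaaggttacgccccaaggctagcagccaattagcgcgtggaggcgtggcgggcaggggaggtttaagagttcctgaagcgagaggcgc
Ptcra, chr17:46763713-46763962, minus strand: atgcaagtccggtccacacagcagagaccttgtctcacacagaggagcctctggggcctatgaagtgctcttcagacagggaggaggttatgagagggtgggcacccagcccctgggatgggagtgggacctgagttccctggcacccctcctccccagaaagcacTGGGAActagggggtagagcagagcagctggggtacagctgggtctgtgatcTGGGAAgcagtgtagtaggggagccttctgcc
The 6 letters are common. On either strand they stand in 1893 of the 9343 tested genes with a promoter entry (20.3%), in 4 of 15 members of the Notch list (26.7%), in 20.5% of promoters of genes called at least 2-fold higher in DP and in 20% of those at least 2-fold lower. A match describes letters in this window only.

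Regulators of early progenitors were all lower in DP. Of 20 listed genes 17 were tested and all 17 were called at least 2-fold lower, with a median log2 fold change of -5.00. The list summed to 27.3 to 33.6 CPM in DP libraries and to 226 to 404 CPM in DN libraries, with the highest sum in young DN 3, the library high in granulocyte markers. How far other blood lineages account for this list was not tested. Erg, an ETS factor of blood stem cells and early T precursors, had 0.205, 0.389, 0.141, 0.199 and 0 CPM in DP libraries, against 24.8, 22.8, 24.1, 21.4 and 33.8 CPM in DN libraries (log2 -7.06, SE 0.29, adjusted p = 2.74e-11). A gene at such DP levels entered the test through its DN counts alone, so the filter in part set how many were lower. Kit, the receptor of stem cell factor that marks the earliest precursors, averaged 6.35 ± 1.21 CPM in DP and 81.2 ± 17.4 CPM in DN (log2 -3.67, SE 0.17). Spi1, the myeloid and early lymphoid factor PU.1, changed by -5.65 (SE 0.56), or by -5.06 without young DN 3 and young DN 5.

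Factors of the T lineage were split, with 18 of 30 called higher and 9 lower (median log2 0.36). Satb1, a chromatin organizer of DP cells, had 4544, 4852, 4368, 4827 and 4777 CPM in DP libraries, against 752, 793, 678, 797 and 1046 CPM in DN libraries. Ets2 averaged 1159 ± 37.04 CPM in DP and 121 ± 13.9 CPM in DN (SD, n = 5 each). Neither overlapped between groups, with log2 fold changes of 2.52 (SE 0.10) and 3.25 (SE 0.08). The broad T lineage factors moved less: Tcf7 by 0.89, Ets1 by 0.86, Bcl11b by 0.74, Gata3 by -0.29 and Runx1 by -0.68, all called, although Gata3 was not called in the model over all 35 libraries (adjusted p = 0.207). Lef1 was called higher by 0.20 (adjusted p = 0.00964), a call lost when libraries were scaled by their totals alone (adjusted p = 0.271) and over all 35 libraries (adjusted p = 0.517). The largest falls included Sox13 and Runx3. Sox13, of gamma delta T cells, averaged 0.838 ± 0.654 CPM in DP and 115 ± 13.2 CPM in DN, and Runx3, of CD8 and innate cells, 18.4 ± 3.96 CPM in DP and 80.7 ± 11.6 CPM in DN. Zfp36l2, an RNA-binding regulator of the beta selection checkpoint, fell by 1.48 on the log2 scale. Of 6 E and Id proteins, 3 were called higher and 2 lower. Id3, an inhibitor induced by TCR signals, rose by 0.92 (SE 0.11), while Id2, of innate lymphoid cells, averaged 8.18 ± 3.46 CPM in DP and 26.3 ± 3.37 CPM in DN. Tcf12, which encodes the E protein HEB, was called higher by 0.42 with overlapping groups, a call lost over all 35 libraries (adjusted p = 0.12), and Tcf4 was lower by 0.57. Tcf3, the gene of E2A, had a log2 fold change of -0.07 (adjusted p = 0.212), which became a called loss of -0.19 under scaling by library totals.

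The TCR complex and its proximal signalling genes were higher in DP as a list: 29 of 36 tested members of 37 were called higher, 22 of them at least 2-fold, and 4 lower, with a median log2 fold change of 1.05. Within the CD3 complex, Cd3d (0.73), Cd3e (0.57) and the zeta chain gene Cd247 (1.36) rose, while Cd3g had 453, 406, 442, 383 and 421 CPM in DP and 529, 502, 490.4, 452 and 481 CPM in DN libraries and was called lower by 0.22 with overlapping groups, a call lost over all 35 libraries (adjusted p = 0.454). Lck, the kinase bound to the coreceptors, had 2578, 2343, 2013, 2110.3 and 2169 CPM in DP libraries, against 1076, 1059, 961, 1032 and 1065 CPM in DN libraries. Zap70, the kinase recruited to the CD3 chains, averaged 290.4 ± 21.7 CPM in DP and 128 ± 11.6 CPM in DN, and Themis, needed for positive selection, 957 ± 80.8 CPM in DP and 280.1 ± 29.6 CPM in DN (SD, n = 5 each). The groups of these 3 genes did not overlap (log2 1.11, 1.18 and 1.77). The largest rises of the list were in Slamf1 (3.18, SE 0.18), a homotypic receptor used in NKT cell selection, Cd5 (2.46, SE 0.14), which dampens TCR signals, and Cd6 (2.40, SE 0.13). The largest losses were in Ubash3b, a phosphatase gene (-2.47, SE 0.23), and the ubiquitin ligase gene Cblb (-1.60, SE 0.06).

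Genes of positive selection and of single positive cells were split, with 8 of 26 tested members of 27 called higher and 14 lower, 13 of them at least 2-fold. Egr1, an immediate early gene of TCR signalling, had 124, 112, 203, 151 and 157 CPM in DP libraries, against 38.1, 37.96, 48.8, 40.6 and 43.03 CPM in DN libraries, and Gimap6 averaged 285 ± 21.4 CPM in DP and 86.3 ± 16.1 CPM in DN. Itgae, the CD103 integrin chain, averaged 6.08 ± 1.18 CPM in DP and 42.7 ± 4.81 CPM in DN (log2 -2.81, SE 0.13).

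**Figure D3:**
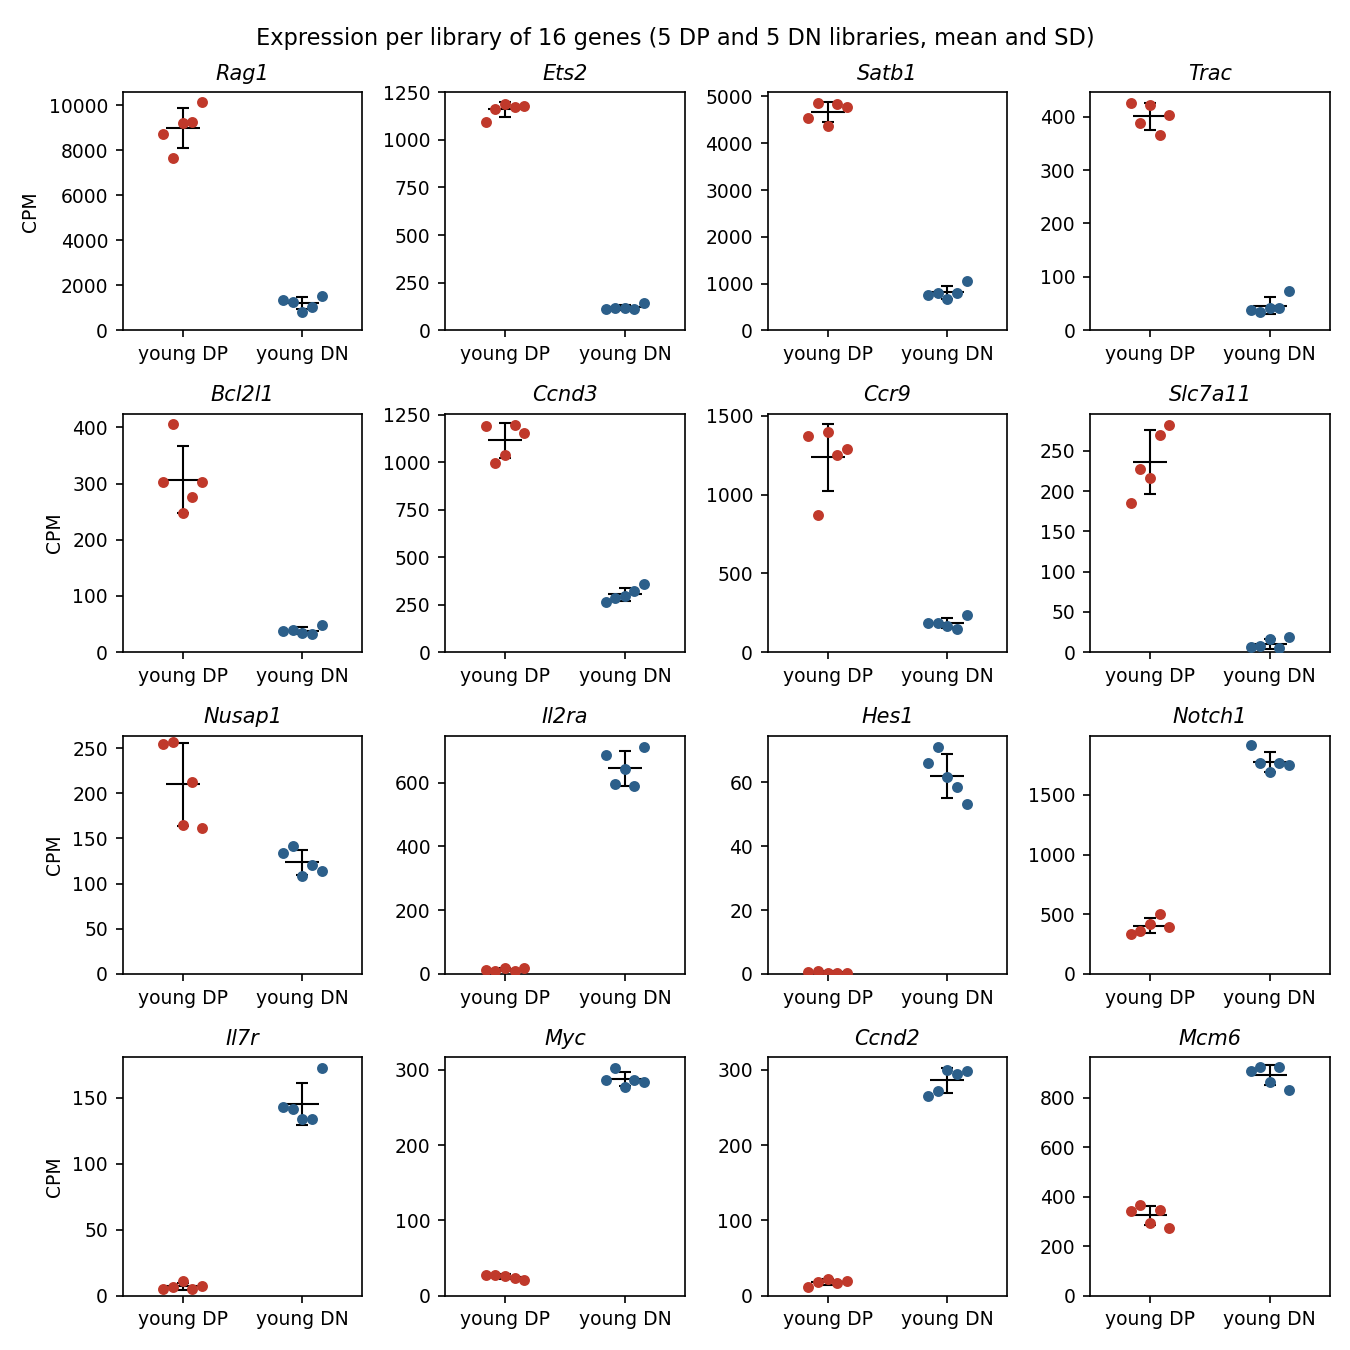
CPM of 16 genes in each of 5 young DP (left, red) and 5 young DN (right, blue) libraries, with the mean and SD of the group as black bars and each axis starting at 0. The DP and DN values do not overlap in any panel; 9 genes are higher in DP and 7 are lower.

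Among chemokine, adhesion and guidance receptors, 9 of 25 tested members of 26 were called higher and 13 lower. Plxnd1, a semaphorin receptor that guides thymocytes, had 1168, 1144, 1246, 1290.1 and 1295 CPM in DP libraries, against 68.3, 53.7, 52.4, 50.5 and 122 CPM in DN libraries. Ccr9, the receptor of the thymic chemokine CCL25, had 1369.7, 872, 1399.8, 1251 and 1287 CPM in DP and 186, 187, 169, 147 and 236 CPM in DN libraries. Neither overlapped (log2 4.14, SE 0.21, and 2.74, SE 0.14). Ccr4 rose by 1.91 and Cxcr4, which helps to place DN cells in the cortex, by 0.89. Among the 13 called lower were the chemokine receptor genes Ccr2 (-3.79) and Cxcr6 (-3.00).

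Cytokine receptor and signalling genes moved both ways: 13 of 28 were called higher and 11 lower, with a median log2 fold change of 0.04 that became -0.08 under scaling by library totals. Il7r, the receptor chain of IL-7, on which DN cells depend, had 4.93, 6.68, 11.1, 5.17 and 7.22 CPM in DP libraries, against 143, 142, 134, 134 and 172 CPM in DN libraries (log2 -4.37, SE 0.17, adjusted p = 1.41e-11). The groups did not overlap. Il2rb averaged 3.43 ± 1.09 CPM in DP and 109 ± 17.2 CPM in DN, Il18r1 0.989 ± 0.462 CPM in DP and 25.6 ± 5.29 CPM in DN, and Cish, a feedback inhibitor induced by STAT5, 0.517 ± 0.348 CPM in DP and 13.9 ± 2.12 CPM in DN. The rises were led by Il4ra, with 253, 281, 316, 274 and 299 CPM in DP and 17.2, 15.3, 49.9, 26.4 and 45.2 CPM in DN libraries (log2 3.21, or 3.86 without young DN 3 and young DN 5). Il21r (1.95) and Socs1 (1.71), which restrains cytokine signals in DP cells, also rose.

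The BCL2 family was split. Of 21 tested genes of 27, 10 were called higher and 9 lower. Bcl2l1, which encodes the survival protein BCL-XL of DP cells, had 303, 406, 249, 275 and 302 CPM in DP libraries, against 37.8, 39.5, 34.3, 33.1 and 47.7 CPM in DN libraries. Bcl2, its relative in DN and mature T cells, had 28.5, 33.6, 34.4, 34.3 and 28.8 CPM in DP and 128, 143, 130.4, 107 and 187 CPM in DN libraries. The groups did not overlap for either gene, and the log2 fold changes were 2.99 (SE 0.13, adjusted p = 4.71e-11) and -2.12 (SE 0.13, adjusted p = 1.16e-09). Per kilobase, Bcl2l1 stood at 66.96 and Bcl2 at 3.50 CPM in DP, against 8.40 and 15.2 CPM in DN. Mcl1, another survival gene, rose by 0.89. The death receptor gene Fas averaged 96.01 ± 7.45 CPM in DP and 4.95 ± 1.98 CPM in DN (log2 4.27, SE 0.17), and Bbc3, the BH3-only killer PUMA, 31.6 ± 2.53 CPM in DP and 6.94 ± 0.744 CPM in DN (log2 2.18, SE 0.10). The survival gene Bcl2l2 was lower by 1.17 on the log2 scale.

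The cell cycle genes split by phase. Of 20 tested cyclin, CDK and CDK inhibitor genes of 22, 9 were called higher and 9 lower. The D cyclins differed in direction: Ccnd3 had 1192, 996, 1039, 1196 and 1153 CPM in DP libraries, against 266, 284, 293, 319.5 and 357 CPM in DN libraries, while Ccnd2 had 11.8, 17.8, 22.5, 16.9 and 19.4 CPM in DP and 266, 271, 300.0, 295 and 299 CPM in DN libraries. Neither overlapped (log2 1.87, SE 0.08, and -4.01, SE 0.12). Their partner kinase gene Cdk6 averaged 8.83 ± 2.10 CPM in DP and 93.6 ± 6.68 CPM in DN. Of the inhibitors, Cdkn1b (p27) averaged 368 ± 20.8 CPM in DP and 106 ± 6.92 CPM in DN, Cdkn2d (p19) 137 ± 18.7 CPM in DP and 31.2 ± 2.85 CPM in DN, and Cdkn1a (p21) 1.79 ± 0.556 CPM in DP and 29.8 ± 6.08 CPM in DN (SD, n = 5 each).

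DNA replication genes were lower in DP with 1 exception that was not called: 31 of 32 S phase genes fell, 12 of them at least 2-fold, with a median log2 fold change of -0.95. Mcm6, a subunit of the replicative helicase, had 344, 366, 294, 348 and 274 CPM in DP libraries, against 908, 923, 865, 925 and 833 CPM in DN libraries, without overlap (log2 -1.45, SE 0.08). Gins2, of the same helicase, changed by -1.73 and Mcm10 by -1.28. None of the G2 and mitosis genes was called lower. Of 30, 15 were called higher, none at least 2-fold, and 0 lower, with a median of 0.25. That count depended on the setting: without young DN 3 and young DN 5, 6 were called higher and 0 lower, and with library totals alone 6 were called higher and 3 lower. Nusap1, a spindle protein, had 255, 257, 165, 212 and 162 CPM in DP and 134, 142, 108, 121 and 114 CPM in DN libraries (log2 0.76, SE 0.13, adjusted p = 8.05e-05). The mitotic list summed to 5540 to 8720 CPM in DP libraries, with DP 3 and DP 5 the lowest and DP 2 the highest, and to 5660 to 6490 CPM in DN. Mki67, the common marker of cycling cells, had 1543, 1665, 1301, 1817 and 1328 CPM in DP and 1563, 1562, 1328, 1367 and 1398 CPM in DN libraries. Its groups overlapped, and its log2 fold change of 0.08 (SE 0.09, adjusted p = 0.424) turned to -0.04 under library totals.

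Most growth genes were lower in DP. Of 24 MYC and ribosome biogenesis genes, 21 were called lower, 20 at least 2-fold, and 2 higher, with a median log2 fold change of -1.77. Myc had 28, 27.9, 25.7, 23.5 and 21.3 CPM in DP libraries, against 286, 303, 277, 286 and 284 CPM in DN libraries, without overlap (log2 -3.51, SE 0.08, adjusted p = 1.69e-13). Srm, the spermidine synthase gene, averaged 13.9 ± 0.766 CPM in DP and 149 ± 11.1 CPM in DN, and Polr1b, a subunit of RNA polymerase I, 18.8 ± 1.65 CPM in DP and 129 ± 7.48 CPM in DN. The MYC antagonist gene Mxd4 rose by 1.70 and Wdr12, of ribosome assembly, by 0.92. The E box CACGTG, to which MYC binds, stood within 250 bases before the start in 2 of 18 list members with a promoter entry, and in 8.3% of tested genes. Of 21 nucleotide synthesis genes, 19 were lower, 16 at least 2-fold, and 2 higher (median -1.41). Cad, the enzyme that starts pyrimidine synthesis, had 71.3, 73.5, 76.3, 86.6 and 71.97 CPM in DP libraries, against 528, 565, 559, 575 and 533 CPM in DN libraries (log2 -2.86, SE 0.07). The folate enzymes Mthfd1 and Shmt2 changed by -2.50 and -2.46. The rises were Impdh1 (0.63) and Prps2 (0.58).

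Of 25 cholesterol and fatty acid genes, 19 were called lower and 2 higher (median -0.79). Fasn, the fatty acid synthase gene, had 187, 146, 281, 291 and 237 CPM in DP and 684, 729, 773, 889 and 715 CPM in DN libraries, without overlap. Scd1, a desaturase, changed by -5.33 (SE 0.51). The cholesterol exporter gene Abca1 was called higher by 0.88 with overlapping groups (adjusted p = 0.033), and the call was lost without young DP 3, DP 5, DN 1 or DN 2 (adjusted p = 0.0754 to 0.107) and with DESeq2 (adjusted p = 0.0622), library totals alone (adjusted p = 0.0627) and all 35 libraries (adjusted p = 0.165). In glycolysis, 12 of 18 tested members of 21 were lower and 5 higher (median -0.60). Hk2, a hexokinase gene, averaged 4.02 ± 1.02 CPM in DP and 39.1 ± 9.02 CPM in DN, whereas Ldhb, a lactate dehydrogenase subunit, had 445, 393, 425, 369 and 417 CPM in DP libraries, against 79.7, 81.1, 63.3, 63.6 and 84.4 CPM in DN libraries (log2 2.46, SE 0.09). Oxidative phosphorylation genes moved less. Of 24, 18 were called lower and 0 higher, 1 of them at least 2-fold (Cycs, cytochrome c, -1.11), with a median of -0.34.

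**Figure D4:**
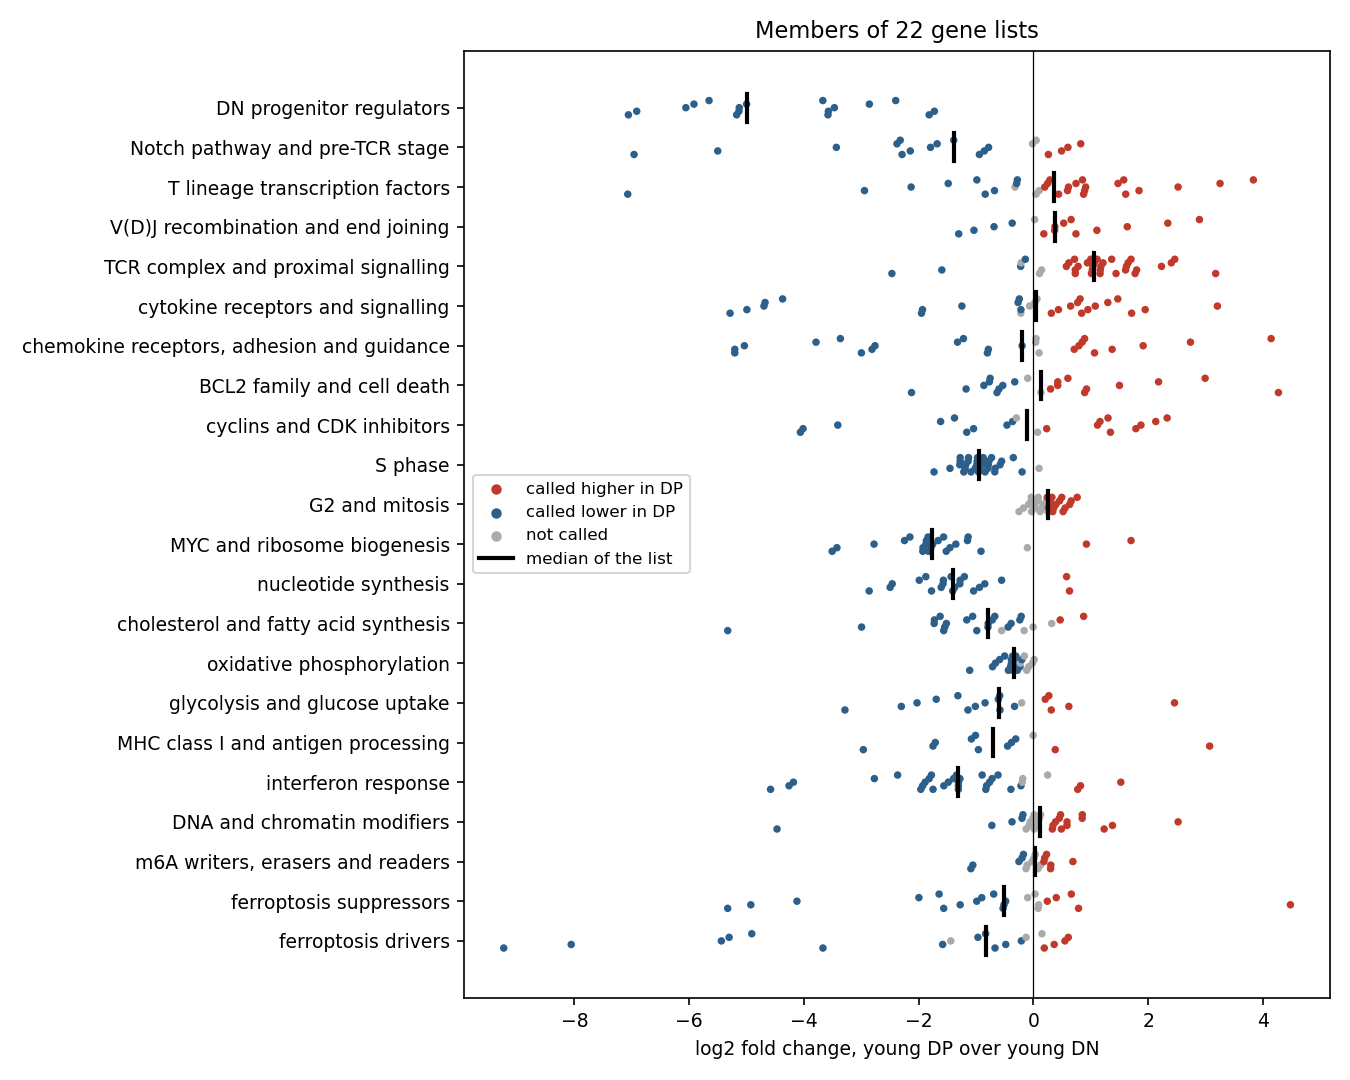
Log2 fold change of young DP over young DN for each tested member of 22 gene lists. Red and blue points were called higher and lower in DP, grey points were not called, and the black bar is the list's median: -5.00 for progenitor regulators, 1.05 for the TCR complex, -0.95 for S phase, 0.25 for G2 and mitosis and -1.77 for MYC and ribosome biogenesis.

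MHC class I genes and interferon response genes were lower in DP. Of 12 tested MHC class I and antigen processing genes of 18, 9 were called lower and 2 higher. H2-K1, a class I heavy chain, had 56.8, 54.95, 65.7, 57.9 and 60.2 CPM in DP libraries, against 405, 399.5, 548, 498 and 457 CPM in DN libraries. B2m, the shared light chain, had 183, 147, 175, 155 and 169 CPM in DP and 503, 528, 635, 559.8 and 559.7 CPM in DN libraries. Neither overlapped (log2 -2.96, SE 0.09, and -1.75, SE 0.08), although reads of class I heavy chains can be shared with near-identical copies. Nlrc5, which switches class I genes on, averaged 18.3 ± 6.02 CPM in DP and 60.03 ± 9.82 CPM in DN. Mr1, the class I-like molecule on which MAIT cells are selected, went the other way, with 241, 175, 226, 201 and 223 CPM in DP and 23.4, 24.3, 18.4, 23.2 and 37.4 CPM in DN libraries (log2 3.07, SE 0.15, adjusted p = 1.73e-10). Of 33 tested interferon response genes of 35, 27 were called lower, 19 at least 2-fold, and 3 higher (median -1.31). Oasl2 averaged 1.37 ± 0.640 CPM in DP and 25.4 ± 13.7 CPM in DN, and Ifit1 2.94 ± 1.72 CPM in DP and 11.6 ± 5.04 CPM in DN. The 3 higher were Igtp (1.52), Ifit2 (0.82) and Stat2 (0.77). The interferon list summed to 787 to 911 CPM in DP libraries and to 1120 to 1440 CPM in DN libraries, highest in young DN 3. The part of other cell types in that sum was not tested.

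Chromatin genes were more often higher than lower, with 13 of 28 tested members of 29 called higher and 5 lower, but their median of 0.11 turned to -0.01 under scaling by library totals. Besides Satb1, the rises were led by Hdac7 (1.38, SE 0.07), a deacetylase exported on TCR signalling, and the H3K27 demethylase gene Kdm6b (1.23, SE 0.06). Dnmt3b, a de novo DNA methyltransferase, had 1.03, 0.622, 1.97, 1.86 and 1.49 CPM in DP libraries, against 28.6, 30.8, 31.7, 30.8 and 34.5 CPM in DN libraries (log2 -4.47, SE 0.19, adjusted p = 4.4e-11), and the maintenance enzyme gene Dnmt1 changed by -0.72.

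The study asks about the m6A methyltransferase METTL3 and about ferroptosis, an iron-dependent death by lipid peroxidation. Mettl3 had 54.2, 57.1, 52.3, 44.3 and 54.8 CPM in DP libraries, against 45.9, 48.1, 42.1, 41.7 and 46.1 CPM in DN libraries. The groups overlapped, and the call of 0.23 (SE 0.08, adjusted p = 0.0158) was lost with library totals alone (adjusted p = 0.235), over all 35 libraries (adjusted p = 0.1) and without young DN 3 and young DN 5 (adjusted p = 0.0694). Of 18 tested m6A writers, erasers and readers of 19, 6 were called higher and 5 lower (median 0.02, or -0.10 with library totals). The nuclear reader gene Ythdc1 was higher by 0.69 (SE 0.05) and Mettl16, which methylates U6 and Mat2a RNA, was lower by 1.09 (SE 0.07). The demethylase gene Fto averaged 90.2 ± 6.51 CPM in DP and 107 ± 7.58 CPM in DN. Ferroptosis suppressors were called lower in 13 and higher in 5 of 22 tested members of 25 (median -0.52), and drivers lower in 12 and higher in 4 of 19 tested members of 25 (median -0.83). Slc7a11, the cystine importer that feeds glutathione synthesis, had 185, 227, 216, 269 and 282 CPM in DP libraries, against 5.79, 7.46, 15.8, 4.71 and 18.7 CPM in DN libraries, with no overlap (log2 4.48, SE 0.29, adjusted p = 3.55e-09, or log2 5.28 without young DN 3 and young DN 5). Gpx4, the peroxidase that reduces lipid peroxides with glutathione, had 77.2, 71.04, 62.96, 61.4 and 59.1 CPM in DP and 64.5, 62.7, 65.4, 61.1 and 57.1 CPM in DN libraries, with overlapping groups (log2 0.09, SE 0.08, adjusted p = 0.299) and a sign that turned under library totals (-0.03). Gsr, glutathione reductase, averaged 44.99 ± 6.30 CPM in DP and 141 ± 18.2 CPM in DN. Among drivers, the phospholipid remodelling gene Lpcat3 rose by 0.61, and Steap3, an iron reductase gene, averaged 0.787 ± 0.373 CPM in DP and 23.8 ± 2.45 CPM in DN. Cybb, a phagocyte oxidase gene, changed by -5.44 and was highest in young DN 3, as the macrophage list was.

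Markers of other cell types moved with the stage. The gamma delta T cell list (8 tested of 15) summed to 64.5 to 103 CPM in DP and 772 to 895 CPM in DN libraries, with all 8 members called lower. Scart2, a scavenger receptor gene of gamma delta cells, had 0.753, 1.87, 0.915, 0.994 and 0.810 CPM in DP libraries, against 198, 229.8, 249.8, 189 and 213 CPM in DN libraries. NKT and innate-like markers (9 of 10) summed to 15.9 to 20.6 CPM in DP and 147 to 237 CPM in DN, and 8 were called lower. Of 14 tested NK and innate lymphoid markers of 18, 12 were called lower and 1 higher. Klrk1, the activating receptor NKG2D, had 3 reads in all DP libraries together and 1091 in the DN libraries, a DN over DP ratio of 339 after scaling (exact 95% interval 116 to 1640, counting error only). Its fitted log2 fold change, which rests on those 3 DP reads, was -8.15, or -9.11 without young DP 1. B cell markers (18 of 18) summed to 475 to 659.5 CPM in DP and 460.5 to 1070 CPM in DN, with 17 called lower and Ighm called higher, a call lost with library totals alone (adjusted p = 0.0622) and over all 35 libraries (adjusted p = 0.52). Ighm, whose constant region is transcribed in thymocytes too, averaged 519.9 ± 65.5 CPM in DP and 397 ± 78.95 CPM in DN. Dendritic cell markers (15 of 17) summed to 169 to 189 CPM in DP and 418 to 1100 CPM in DN, with 11 called lower, and Cd74 averaged 11.01 ± 2.39 CPM in DP and 244 ± 150.3 CPM in DN. Macrophage markers (9 of 15) summed to 10.5 to 16.6 CPM in DP and 34.95 to 153 CPM in DN, with 7 called lower. Granulocyte and mast cell markers (10 of 14) summed to 0.933 to 3.51 CPM in DP and 320.3 to 1190 CPM in DN. All 10 were called lower and 2 were at 0 in every DP library. All 10 averaged under 1 CPM in DP and entered the test through their DN counts, so the direction was largely fixed in advance. The same limit touches members of other marker lists that averaged under 1 CPM in DP, among them 11 of 18 B cell markers. S100a9, a neutrophil granule gene, had 0.958, 0.0777, 0.0704, 0.0663 and 1.15 CPM in DP libraries, against 67.1, 69.3, 231, 74.2 and 105 CPM in DN libraries. Young DN 3 held the highest value, and the log2 fold change was -7.82, or -7.19 without young DN 3 and young DN 5 and -8.47 without young DP 5. Plasma cell markers (8 of 9; 6 lower) and thymic stroma markers (6 of 17; 3 lower, Pecam1 higher) followed, with Epcam at 5.86 ± 1.31 CPM in DP and 28.97 ± 2.51 CPM in DN. Erythroid and platelet markers (3 of 12; 1 lower) summed to 3.78 to 5.83 CPM in DP and 4.37 to 6.83 CPM in DN. S100a9 was thus at most at 1.15 CPM in any DP library and at least at 67.1 CPM in every DN library, and the part of such cells in the other losses was not tested.

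**Figure D5:**
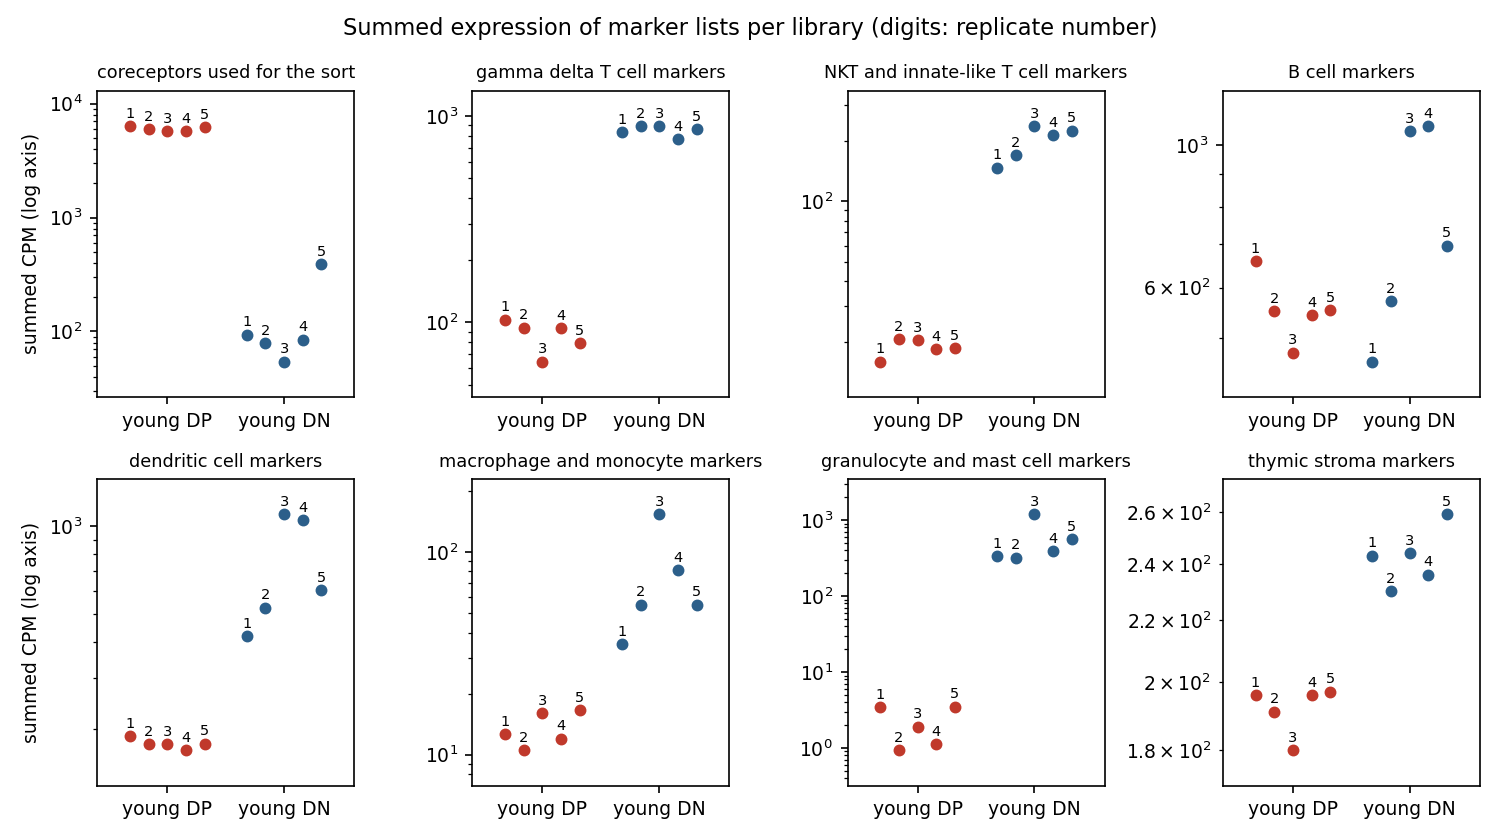
Summed CPM (log axis) of 8 marker lists in each of 5 young DP (left, red) and 5 young DN (right, blue) libraries, with the replicate number above each point. Young DN 5 is high in the coreceptors that were sorted on (387 CPM), and young DN 3 is the highest library for granulocyte (1190 CPM) and macrophage (153 CPM) markers.

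The same stage comparison was made in the other cohorts, which share no library with the young mice. Aged DP against aged DN gave 5870 calls of 13596 genes (43.2%) and WT DP against WT DN 8622 of 13490 (63.9%). Of the 1480 genes called at least 2-fold higher in young DP, 1423 were tested in aged mice and 980 were called higher there, where 18.6% of all genes were, and 1429 were tested in WT mice and 1339 were called higher, where 30.2% were. Of the 2443 called at least 2-fold lower, 1787 of 2191 tested were called lower in aged mice (24.6% of all genes) and 2065 of 2229 in WT mice (33.7% of all genes). By the 2-fold rule 23.7% of genes were called in aged mice, 7.64% higher and 16.1% lower, and 31.6% in WT mice, 13.6% higher and 18.1% lower. The shared rises make up 55.0% of the young list and 78.3% of the aged list, and 82.1% of the young list and 66.5% of the WT list. Calls in the opposite direction numbered 5 in aged and 5 in WT mice. Across genes, which are not replicates, Pearson's r of the log2 fold changes was 0.87 between young and aged (13238 genes) and 0.93 between young and WT (13221 genes).

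In the test of the difference itself, 1 of 14722 genes (0.00679%) differed between young and aged mice, the lincRNA A630023P12Rik, which is outside the naming rule and was chosen after its value was seen. It had 9.24, 10.5, 13.7, 11.1 and 11.9 CPM in young DP and 1.69, 1.73, 2.07, 2.03 and 2.70 CPM in young DN libraries (log2 2.46), and -2.45 in aged mice, a difference of 4.91 (SE 0.44, adjusted p = 1.32e-05). Other settings called more genes: 21 over all 35 libraries, 85 with DESeq2, 7 without aged DN 1, 3 without young DN 3, and 2 without aged DN 2, young DN 2 or young DN 4. Between young and WT mice, 100 of 14655 genes (0.682%) differed, 19 (0.13%) with a more positive and 81 (0.553%) with a more negative log2 fold change in young mice. That count was 25 over all 35 libraries and 331 with DESeq2. Leaving out WT DP 4 gave 402, WT DP 1 gave 47 and WT DP 3 gave 64, and the count was 55 to 61 without young DN 1, young DN 2, young DP 1, young DP 3 or young DP 5. Malat1, a nuclear long non-coding RNA, averaged 2021 ± 308 CPM in young DP and 984 ± 93.5 CPM in young DN, and 2055 ± 704 CPM in WT DP and 310.0 ± 76.9 CPM in WT DN (SD, n = 5 each, scaled over these 20 libraries). Its log2 fold changes were 1.03 in young and 2.73 in WT mice, and differed by -1.69 (SE 0.28, adjusted p = 0.00675). Kcnq1ot1, Gria3 and Lingo4 also had lower log2 fold changes in young mice, by differences of -1.35, -1.31 and -1.09. Cxcr6, a chemokine receptor of innate-like T cells, averaged 1.68 ± 0.382 CPM in young DP and 13.4 ± 2.31 CPM in young DN, and 1.33 ± 0.369 CPM in WT DP and 33.3 ± 9.43 CPM in WT DN, a difference of 1.64 (SE 0.32, adjusted p = 0.0175). Ctsw, a protease gene of cytotoxic cells, differed by 1.02, Tmed1 by 1.18 and Klk8 by 1.20. In the model over all 35 libraries none of these 8 kept its call (adjusted p of Malat1 = 0.0659). Kcnq1ot1, Tmed1 and Klk8 also lost the call on leaving out most of the single libraries.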

How the data were processed

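Bulk RNA from flow-sorted mouse thymocytes was sequenced after Trizol extraction, per the labels' protocols. The authors deposited 1 table of read counts per gene for all 35 libraries. Per the submitters' processing notes, the tools included STAR 2.5.1 and HTSeq 2.0.3 along with Subread, Trim Galore 0.4, DESeq2 and bcl2fastq, and the builds mm10 and GRCm39 both appear. Which of the builds or counters made the table, and whether strand was used, is not given in the sources used here. Gene identifiers are those of the C57BL/6NJ strain annotation. The table lists 41096 genes, 0 of them assigned to a chromosome named as mitochondrial. Even so, 2 of the tested genes are classed as mitochondrial transfer RNA.

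Genes were kept by edgeR's filterByExpr (minimum count 10, minimum total 15) and tested on raw counts with edgeR 4.0.16 (R 4.3.3): TMM scaling and the quasi-likelihood test, with Benjamini-Hochberg adjustment over all tested genes. CPM are counts per 1e6 after TMM scaling. Standard errors are the log2 fold change divided by the root of F. The stage effects of 2 cohorts were compared by an interaction term over their 20 libraries. The code was tested on simulated data. Named genes are the 12 largest rises and falls with at least 10 CPM and no overlap, the 5 most abundant per group, up to 3 per direction from each list, a fixed set of stage genes, and 4 per direction from an interaction. A few genes that the rule picks are not reported here. The gene lists and members were chosen with earlier results of these data known. Alternatives were other scaling, DESeq2 1.42.0, other count filters, a test against a 1.5-fold change, a fit over all libraries, a replicate block and leaving out each library. Exact Poisson intervals cover counting error only. Distances within the alpha locus come from the table's strain positions, while printed sequences come from GRCm38.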

Additional observations from a re-analysis of the deposited data

Results flagged for a closer look

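For each of 151 genes in the text, the libraries of a group were searched for 1 that stood apart, meaning a gap to its nearest neighbour of more than 0.71 of the group's range. Of 302 groups, 32 held such a library. Chance flags about 1 in 20 groups.

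Young DN 5, the DN library with the highest coreceptor sum, was the high library in 13 of them. It had 8.17 CPM of Slc6a19, against 1.00 to 1.82 CPM in the other DN libraries, 9.33 CPM of Adam12, 1.35 of Fn3k, 6.95 of Xrra1, 5.98 of Tdrp and 6.18 of Tle2. It also had 74.5 CPM of Trac, 122 of Plxnd1, 146 of Ets2, 8.49 of Fas and 42.0 of Socs1. Of genes lower in DP, it was high for Il7r (172 CPM) and Erg (33.8 CPM). It was the low library for Rplp0 (2112 CPM) and Tcf4 (82.6 CPM).

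Young DN 3, the library richest in granulocyte markers, was high for S100a9 (231 CPM, against 67.1 to 105 CPM in the other DN libraries), Spi1 (23.7 CPM), Gsr (172 CPM) and Zfp36l2 (776 CPM). Young DN 1 was high for Trbc2 (518 CPM).

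DP libraries stood apart less often. Young DP 1 was high for Srm (15.3 CPM) and Gins2 (13.1 CPM), and low for Ets2 (1095 CPM). Young DP 2 was low for Ccr9 (872 CPM, against 1251 to 1399.8 CPM in the other DP libraries), Hdac7 (1468 CPM) and Kit (4.20 CPM), and high for Scart2 (1.87 CPM). Young DP 3 was high for Tdrp (82.3 CPM) and Scd1 (1.62 CPM) and low for Ifit2 (53.2 CPM). Young DP 4 was high for Trbj1-2 (18.7 CPM) and young DP 5 for Ccr2 (1.96 CPM).

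The stage effect differed between young and WT mice for 8 named genes in edgeR's interaction test. The young minus WT difference in log2 fold change was -1.69 for Malat1, -1.35 for Kcnq1ot1, -1.31 for Gria3, -1.09 for Lingo4, 1.02 for Ctsw, 1.18 for Tmed1, 1.20 for Klk8 and 1.64 for Cxcr6. The calls of Kcnq1ot1, Tmed1 and Klk8 were lost in most alternatives. Kcnq1ot1 averaged 39.4 ± 8.16 CPM in young DP and 40.4 ± 3.60 CPM in young DN, and 29.8 ± 6.96 CPM in WT DP and 11.98 ± 4.36 CPM in WT DN (SD, n = 5 each). Between young and aged mice the log2 fold change of A630023P12Rik differed by 4.91.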

How the results depend on the processing

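The comparison of young DP with young DN gave 9697 calls, and between 9350 (without DN 2) and 9817 (without DP 1) when each library was left out, with 4484 to 4632 higher, 4866 to 5268 lower and 3941 to 4178 called at least 2-fold. Without young DN 3 and young DN 5, an alternative chosen after seeing the data, there were 9123. DESeq2 gave 9723, the replicate block 9810 and the fit over all 35 libraries 7780. Testing against a 1.5-fold change left 4821, 1966 higher and 2855 lower. Library totals alone moved the median log2 fold change of all genes to -0.14. Same-numbered DP and DN libraries deviated together only weakly (r = 0.03 to 0.187). The closest DN library had the same number for DP 1, DP 3 and DP 5, but not for DP 2 and DP 4. A pairing is not excluded by these values, but no label states one, so the numbers were not taken to pair them. The interaction with aged mice was called for 1 gene, and for 85 by DESeq2, 21 over all 35 libraries, 10 with the block and 1 to 7 (7 without aged DN 1) leaving out a library. That with WT mice was called for 100 genes, and for 331 by DESeq2, 25 over all 35 libraries, 15 with the block, and 47 (without WT DP 1) to 402 (without WT DP 4) leaving out a library. The cause was not tested. Of the single-gene stage effects, 2 alternatives reversed a sign, each of a gene that was not called: library totals alone gave -0.0281 for Gpx4 and -0.0377 for Mki67. Of the other alternatives for single genes, 39 lost a call and 2, both of Tcf3, gained one. Of those for the 8 genes that differed between young and WT mice, 69 lost the call and 139 kept it, and the 26 for A630023P12Rik kept it. Kcnq1ot1, Tmed1 and Klk8 lost it in most alternatives, whereas Malat1 and Cxcr6 lost it only in the fit over all 35 libraries.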

Other observations

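Calls by class of transcript are set beside 33.9% called higher and 36.5% called lower over all tested genes. Of 372 tested antisense genes, 147 (39.5%) were called higher and 55 (14.8%) lower in DP (median log2 fold change 0.44), and of 346 lincRNA genes 122 (35.3%) were higher and 72 (20.8%) lower (median 0.30). Of 76 small nucleolar RNAs, which guide the modification of ribosomal RNA, 1 (1.32%) was higher and 23 (30.3%) were lower (median -0.41). Both shares of the small nucleolar RNAs are under those of all genes. Among 11689 protein-coding genes 3993 (34.2%) were higher and 4618 (39.5%) lower (median -0.05). Reads of an antisense gene cannot be told apart from those of its partner unless counting used strand.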
